A study of Homo sapiens with 2 samples.

Results

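The apolipoprotein L family, APOL1 to APOL6, was examined in A375 cells after knockdown of THOC2. The members were taken by gene symbol, and the family was selected on the APOL6 signals of these same arrays, chosen by the fall of APOL6 between them, so that difference is a description and not a finding. All 6 genes were on the array, among 34757 named genes, and 10 probes carried their symbols. Of the 3 APOL6 probes, the bright one was 2.65-fold lower with THOC2 siRNA, a dim one was at least 1.90-fold higher, and one was below background on both arrays. The bound for the dim probe holds for the main processing only. Another background correction (normexp), which adds an offset of 50 to every signal, gave it a log2 fold change of 0.42. APOL1 and APOL2 were nearly level, APOL3 and APOL4 were dim, and APOL5 was not detected.

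A375 is an established human melanoma cell line. THOC2 is a large subunit of the THO complex, which couples transcription to the packaging and export of messenger RNA. One culture had received a small interfering RNA against THOC2 and the other a negative control siRNA (NC), both were collected at 48 h, and total RNA of each was labelled with Cy3 and hybridised to 1 Agilent array. Both groups were the same parental line with no other alteration named, and which of the siRNA sequences designed in the study was put on the array is not given in the sources used here.

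The apolipoprotein L proteins are lipid-binding proteins of mammals whose genes lie in a cluster on the long arm of chromosome 22. APOL1 is the only member with a signal peptide that sends it into the circulation, where it travels on high-density lipoprotein with haptoglobin-related protein and kills trypanosomes. The other members act inside cells, at membranes, and several of the genes are known to be induced by interferon and tumour necrosis factor. APOL6 has been described as a pro-apoptotic protein, and APOL3 takes part in defence against bacteria in the cytosol.

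With 1 array per group there was no replicate of either condition, so no test was made and each value describes these 2 arrays. The number of arrays limits the precision. A bulk array cannot tell fewer cells expressing a gene from less RNA per cell. Signals are fluorescence after background subtraction by the scanner software, in arbitrary units, with the software's own error after the ± sign. Log2 fold changes are THOC2 siRNA minus NC after each array was set to its 75th percentile, which lay at 6.62 on the log2 scale for NC and 6.31 for THOC2 siRNA. A probe was compared if it was well above background on at least 1 array and was called at a fold of 2. Of 58199 probes, 42.3% were well above background with NC and 39.4% with THOC2 siRNA. Among 25345 compared probes 844 were called lower (3.33%) and 743 higher (2.93%), so 53.2% of the calls were lower, but only 42.6% after lowess centring and 29.5% after normexp. Both THOC2 probes were lower, from 136 to 40.9 (log2 fold change -1.42) and from 67.3 to 35.1 (-0.63). One label field names the siRNA the other way round from the title and description, and the groups follow the latter. Of 15 melanocyte and melanoma markers, 10 were well above background on both arrays, including MITF and SOX10, while PMEL, TYR, TYRP1 and TFAP2A were on neither. Of 12 markers of leukocytes, endothelium, keratinocytes and hepatocytes, 5 were on both arrays (CD14, CD3E, KRT14, PECAM1 and PTPRC). Their highest signal was 83.9 for NC and 104 for THOC2 siRNA. The highest melanocyte or melanoma marker was AXL at 23200 with NC and CSPG4 at 16100 with THOC2 siRNA. The compared probes of MITF read only 102 and 274 with NC. The summed signal of those other-cell markers was 288 and 329, and their part in the APOL values was not tested.

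Each APOL probe is a 60-base oligonucleotide on 1 spot, and all 10 map to 22q12.3 in hg19, the build of the array's annotation. The 3 APOL6 probes are shown first because they disagree. Each is given by its last 30 bases on the sense strand, and the capitals mark the hexamer AATAAA, the usual polyadenylation signal.
APOL6, probe at base 811 of the transcript: aaaacgtccgtgcattttggaaactcagag
APOL6, probe at base 2800: actgataaagtgtaattacactAATAAAgc
APOL6, probe at base 9444: aaagctttggagttttcctgtgattagtgt
These stretches lie at chr22:36055159-36055188, chr22:36057148-36057177 and chr22:36063792-36063821. In the transcript the 3 probes are 1989 and 6644 bases apart, and the genome distances are the same, so no intron separates them. The hexamer was looked for after the sequences had been seen. It was in 2 of the 10 APOL probes, those of APOL6 at base 2800 and of APOL2, and in 7.85% of all probes on the array (same strand). A match is a description of the letters and does not show that the site is used.

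The APOL1 and APOL2 probes are shown because they were the most alike of all pairs from different members. The capitals mark the bases that differ between them, 5 of the 30 shown.
APOL1, probe at base 2529: gttCAatgtcctCcGaagaatGaagtcttt
APOL2, probe at base 2232: gttTGatgtcctTcCaagaatAaagtcttt
The stretches lie at chr22:36663120-36663149 on the plus strand and chr22:36622677-36622706 on the minus strand. Over their best ungapped match of 32 bases, 27 were the same (84.4%), whereas the best match of any other of the 39 pairs of different members covered at most 19 bases. No other probe on the array shared a run of 16 bases with any APOL probe. Exonic or untranslated position was not analysed here.

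APOL6 was the member for which the family was chosen. Its probe at base 2800 (chr22:36057118-36057177) gave 629 ± 63.0 with NC and 192 ± 19.4 with THOC2 siRNA. The THOC2 siRNA signal was thus 30.5% of the NC signal before any scaling. The pixel mean went from 694 to 242, over a local background of 25 and 23, so the gap was present in the raw scan. The log2 fold change was -1.41, or 2.65-fold lower. The technical SD of repeated spots was 0.052 for all probes with a mean log2 signal of 8 or more (244 probes printed several times on the array). That open class holds this probe by the mean of its 2 signals. In the class below, from 6 to 8, the SD was 0.099 (36 probes). The error computed by the software was 0.21 on the same scale. The repeated spots measure spread within an array only and not between cultures.

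Among 22207 probes well above background on both arrays, 81 were called lower (0.365%), and 24 of them were lower by more than the APOL6 probe. Among the 2615 of these whose signal lay within 0.5 log2 units of it, 7 were called lower (0.268%) and 2 were lower by more. The median log2 fold change of that group was 0.02 with an SD of 0.26. The probe therefore sat at the low end of its brightness class, where its selection had put it. In the region of the array around its spot 6.28% of 191 compared probes were called lower and 5.24% higher, with a median of 0.04. The whole array had 3.33% lower and 2.93% higher, and the part of position in the probe's value was not tested.

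The APOL6 probe at base 811 (chr22:36055129-36055188) read 11.0 ± 3.13 with NC, not well above background, and 22.4 ± 3.90 with THOC2 siRNA. The pixel means were 51.5 and 62.7 over local backgrounds of 24 and 21. The computed log2 fold change of 1.34 put the probe among those called higher, opposite to the bright probe. With the NC signal raised to the lowest one well above background, 14.7, the THOC2 siRNA signal was at least 1.90-fold higher (0.92 on the log2 scale), under the 2-fold call. Probes of this dimness had a technical SD of 0.42, though only 14 repeated probes measured it. The APOL6 probe at base 9444 (chr22:36063762-36063821) read 8.01 ± 3.55 and 8.00 ± 3.80, below the detection limit on both arrays, and has no fold.

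**Figure D1:**
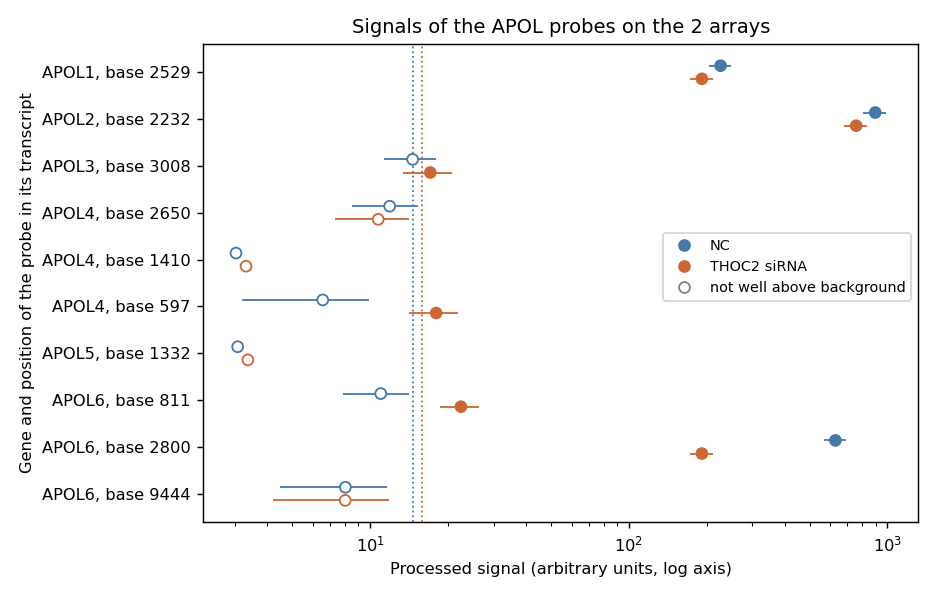
Processed signal (arbitrary units, log axis) of each of the 10 APOL probes on the NC and the THOC2 siRNA array. Bars are the software's error, drawn for all but the 2 probes whose signal is a substitute value, open symbols are not well above background, and the dotted lines are the detection limits, 14.7 for NC and 15.9 for THOC2 siRNA. The APOL6 probe at base 2800 stands apart by the gap between 629 and 192.

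The mean of the 2 compared APOL6 probes was -0.03, a value that neither of them had. It was -1.41 when only probes well above background on both arrays were kept, and -0.41 with normexp background correction. Of 4272 genes with 2 or more compared probes, 185 had a probe called lower and 134 a probe called higher. In 12 (0.281% of the 4272) probes were called in opposite directions, and APOL6 was 1 of them. As APOL6 was selected on its lower probe, the 185 genes are the background for it and not the 4272. In 3 of these 12 the lower probe was on both arrays, namely APOL6, XLOC_l2_008632 and lnc-THBS1-1, which were named after their values were seen. In none of the 12 were both opposing probes on both arrays.

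The 81 lower probes on both arrays belonged to 72 genes, of which 25 had compared probes outside the 81. The median log2 fold change over those 28 other probes, the dim one of APOL6 among them, was -0.02. Of the 28, 0 were called lower, 3 were called higher and 14 were below 0. The share of all compared probes below 0 is not given here, so the 14 have no background. A second probe of a gene that was itself among the 81 was left out. A lower call on both arrays therefore could not occur among the 28. Over all compared probes 3.33% were called lower and 2.93% higher. Of the 729 probes that, like the dim APOL6 probe, were detected with THOC2 siRNA only, 76.7% were called higher. Their median log2 fold change was 2.03. At the limit for the dim NC signal, 40.1% of them remained at 2-fold or more.

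**Figure D2:**
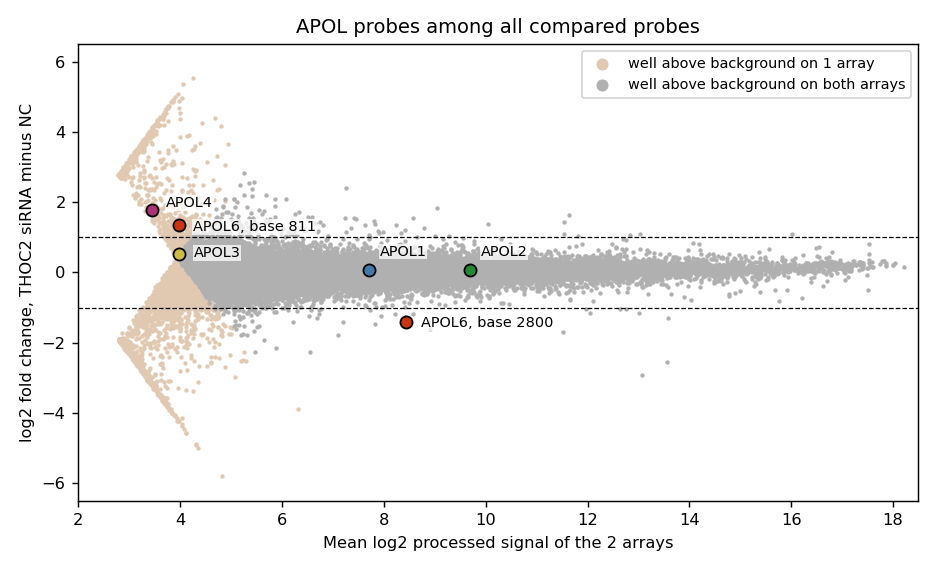
Log2 fold change (THOC2 siRNA minus NC) of all compared probes against their mean log2 signal, with the 6 compared APOL probes in colour. The APOL6 probe at base 2800 lies below the bright probes around it, the dim APOL4 and APOL6 probes lie in the wide left part, and 1 probe lies beyond the vertical axis.

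APOL1, the secreted member, had 1 probe (chr22:36663090-36663149). It read 226 ± 22.8 with NC and 191 ± 19.4 with THOC2 siRNA, 84.6% of the NC signal before scaling. After scaling the log2 fold change was 0.07, within the technical SD of 0.099 for its brightness and within the software's error of 0.21. Under the alternatives it ran from -0.0033 to 0.07.

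Partners of APOL1 on its circulating particle were near the detection limit in these cells. HP, the free haemoglobin carrier haptoglobin, read 15.0 and 18.8 (0.63). APOA1, the main protein of high-density lipoprotein, read 15.7 and 22.6 (0.84) on the compared probe. Another APOA1 probe read 3.28 and 3.35, not well above background on either array. HPR, haptoglobin-related protein, read 3.19 and 3.32, not well above background on either array.

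APOL2, an intracellular member, had 1 probe (chr22:36622649-36622708). It read 897 ± 89.7 with NC and 756 ± 75.7 with THOC2 siRNA, 84.4% of the NC signal before scaling. The log2 fold change was 0.06, against a technical SD of 0.052 and a software error of 0.20. The direction was not stable, since normexp background correction gave -0.06. The unscaled shares of APOL1 and APOL2 also hold the difference in overall brightness between the arrays, which scaling removes. Whether either probe reads the other transcript was not tested.

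APOL3 had 1 probe (chr22:36536936-36536995), which read 14.6 ± 3.30 with NC, just under the limit, and 17.1 ± 3.65 with THOC2 siRNA. The pixel means were nearly the same, 56.7 and 57.8. The log2 fold change was 0.54, or at least 1.44-fold higher at the limit, and the technical SD at that brightness was 0.42. The signals with their software errors overlapped. Before scaling the THOC2 siRNA signal was 117% of the NC signal. The same scaling gave 0.44 for the probes of APOL5 and of APOL4 at base 1410, which were undetected on both arrays.

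APOL4 had 3 probes, all dim. The one at base 597 of its transcript (chr22:36593689-36593748) read 6.55 ± 3.36 with NC and 18.0 ± 3.81 with THOC2 siRNA. Its log2 fold change was 1.77, called higher, but at the limit for NC the THOC2 siRNA signal was at least 1.52-fold higher, under the call. In the region around its spot 21 of 209 compared probes were called higher, where the whole array had 2.93%, and the part of position in its value was not tested. The probe at base 2650 of another transcript (chr22:36585883-36585942) read 11.9 ± 3.36 and 10.7 ± 3.42, below background on both arrays. The probe at base 1410 of that transcript (chr22:36587123-36587182) held the software's substitute value on both, 3.03 and 3.31.

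APOL5 had 1 probe (chr22:36125425-36125484), which also held the substitute value on both arrays, 3.07 and 3.36. Its pixel means were 43.9 and 39.3, inside the range of the negative control spots, whose highest pixel means were 45.8 and 43.7. No APOL5 signal was detectable on these arrays.

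In all, 6 of the 10 probes, from 5 of the 6 genes, could be compared. They comprised 3 on both arrays and 3 on the THOC2 siRNA array only, with none on the NC array only. Of all 25345 compared probes 22207 were on both arrays, 729 on the THOC2 siRNA array only and the rest on the NC array only. By the call 1 of the 6 APOL probes was lower and 2 were higher, where 3.33% and 2.93% of all compared probes were. The lower one is the APOL6 probe on which the family was selected, so its count is not a result. Both higher ones were detected with THOC2 siRNA only, and 76.7% of the 729 such probes were called higher. At the limit 0 of the higher ones kept the call. By gene, 0 of 5 were lower and 1, APOL4, was higher through such a probe, against 3.34% and 2.96% of 17514 genes. The median over the 5 genes was 0.07, beside 0.02 over all genes compared. Signals of different probes depend on their sequence, so the members were not ranked by level.

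**Figure D3:**
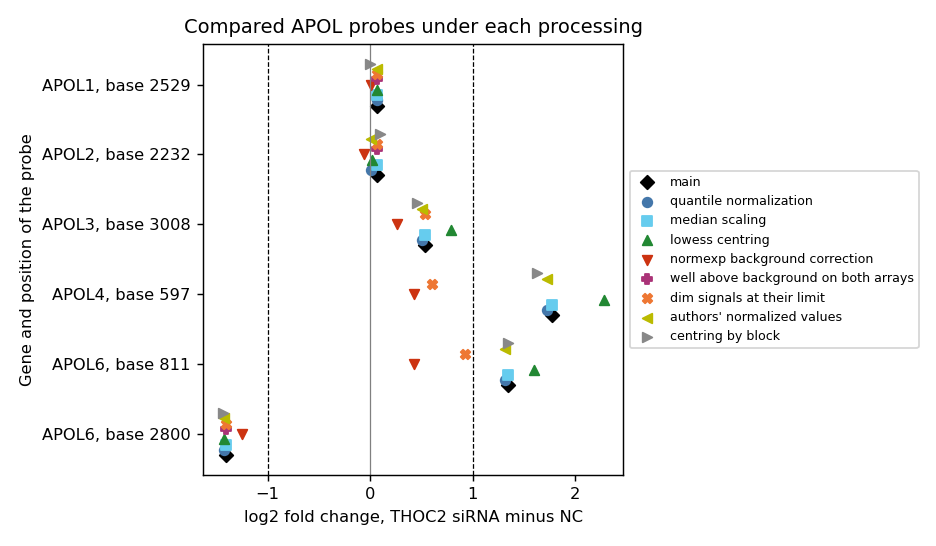
Log2 fold change (THOC2 siRNA minus NC) of the 6 compared APOL probes under the main processing and its alternatives, 1 symbol per setting. The setting with no detection filter is not drawn, as it leaves these probes where they are. The APOL6 probe at base 2800 stays between -1.44 and -1.25, while the dim APOL6 and APOL4 probes spread from 0.42 upwards.

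The 6 probes differed in how far the processing moved them. The APOL6 probe at base 2800 stayed between -1.44 and -1.25 in all 9 alternatives that compared it. The one at base 811 ran from 0.42 with normexp to 1.60 with lowess centring, which spans the call. The APOL4 probe ran from 0.42 to 2.28 over the same pair, and the APOL3 probe from 0.26 to 0.79. The low ends of these 3 lie under the bounds given above, which hold for the main processing only.

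The genes around the cluster were described in the same way. Of 16 neighbouring genes on chromosome 22, 13 had a compared probe and count as measured, with a median log2 fold change of 0.22, 0 called lower and 1 called higher, beside 3.34% and 2.96% of all genes. The one called was RASD2, a small GTPase, at 11.3 with NC and 22.7 with THOC2 siRNA, dim on NC and at least 1.92-fold higher at the limit. Its probe resembled the dim APOL6 probe in being well above background with THOC2 siRNA only. MYH9, the non-muscle myosin heavy chain next to APOL1, was at 0.22, and RBFOX2, a splicing regulator between APOL6 and APOL3, was at 0.00. MCM5, a subunit of the replicative helicase, was at 0.69, HMOX1, haem oxygenase, at 0.54 and EIF3D, a translation initiation factor, at 0.53. The others lay between -0.06 and 0.28, namely IFT27 (-0.06), CSF2RB (0.02), TOM1 (0.07), PVALB (0.11), HMGXB4 (0.20), TXN2 (0.25) and FOXRED2 (0.28). The value of IFT27 is the mean of probes at -0.34 and 0.22. That of EIF3D is the mean of a bright probe at 0.41 and a dim one at 0.65, which read 19.7 with NC. MB, CACNG2 and NCF4 were not well above background on either array. Over the 1643 kb from the first to the last probe of this stretch, 22 compared probes of other transcripts held 0 called lower and 1 called higher, beside 3.33% and 2.93% of all compared probes. With shares this small, few or no calls are the background for so few genes or probes. Of these 20 were on both arrays, and the lowest was at -0.34.

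**Figure D4:**
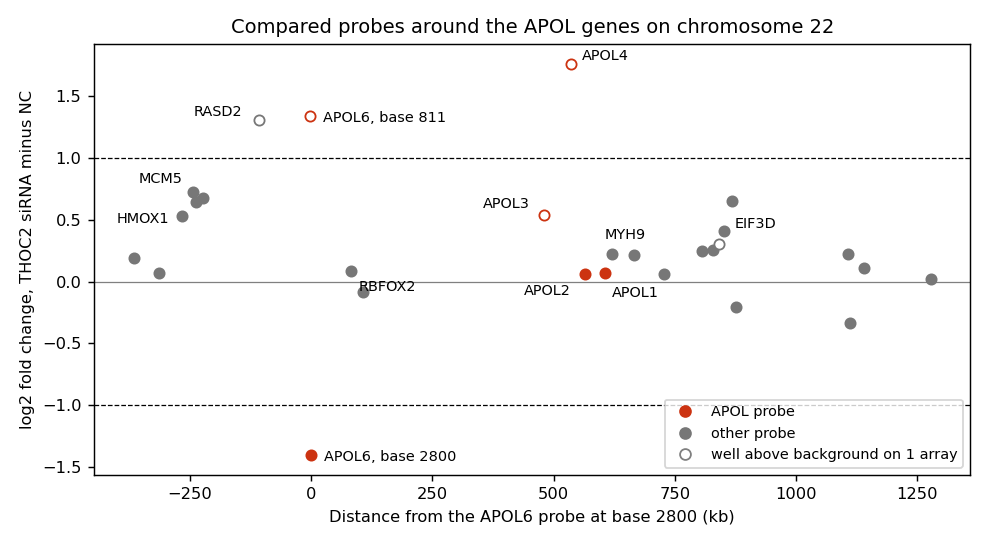
Log2 fold change (THOC2 siRNA minus NC) of the 28 compared probes around the cluster against distance in kb from the APOL6 probe at base 2800, with APOL probes in red and open symbols for probes well above background on 1 array only. That APOL6 probe, selected on its fall, is the only one under the lower dashed line of a 2-fold change, and the dim APOL6 probe, RASD2 and APOL4 are above the upper one.

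Since several APOL genes are known interferon targets, a list of interferon-stimulated genes was set beside them. Of 77 genes 67 were measured, with a median log2 fold change of -0.09, and 46 were below 0, while the median of all genes was 0.02. The share of all genes below 0 is not given here, so the count of 46 has no background beside it. IFI27 was the one called lower and 0 were called higher, against 3.34% and 2.96% of all genes. IFI27 read 22.8 with NC and 8.41 with THOC2 siRNA, not well above background, so it was at least 1.16-fold lower at the limit. Among genes with all compared probes on both arrays, the lowest were CXCL11, a chemokine, at -0.80, RTP4, an antiviral chaperone, at -0.71 and IFIH1, a sensor of double-stranded RNA, at -0.51. The highest were PARP10 at 0.52, TRIM14 at 0.48 and APOBEC3G, a DNA cytidine deaminase, at 0.48. The mean for TRIM14 covered probes from 0.03 to 1.45. That for PARP10 covered a bright probe at 0.26 and a dim one at 0.77, which read 16.6 with NC.

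Of 24 genes of interferon signalling, receptors, kinases and transcription factors, 22 were measured, with a median of 0.02, 0 called in either direction (3.34% and 2.96% of all genes) and 11 below 0. The count of 11 likewise has no share of all genes beside it. The lowest on both arrays were IRF9, part of the complex that binds interferon response elements, at -0.43, the receptor subunit IFNAR1 at -0.43 and the transcription factor IRF1 at -0.30. The highest were IRF2, which opposes IRF1, at 0.70, the inhibitor SOCS3 at 0.34 and IRF3 at 0.31. The IRF2 probe was dim, at 24.2 with NC and 31.8 with THOC2 siRNA, where the technical SD was 0.22.

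The other apolipoproteins share a name with the APOL family and are mostly carriers of lipid in lipoprotein particles. Of 18 such genes, 9 were measured, with a median of -0.02, and 0 were called in either direction, where 3.34% of all genes were called lower and 2.96% higher. The lowest were APOLD1, an endothelial gene which carries an apolipoprotein L domain and is related to the family, at -0.46, APOOL, of the mitochondrial inner membrane, at -0.36, and APOE, a lipoprotein ligand, at -0.29. The highest were APOA1 at 0.84, APOC4 at 0.61 and CLU, clusterin, at 0.20. APOA1 and APOC4 were near the detection limit, APOC4 at 16.4 with NC and 20.1 with THOC2 siRNA. The 2 APOLD1 probes gave -0.84 and -0.08.

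**Figure D5:**
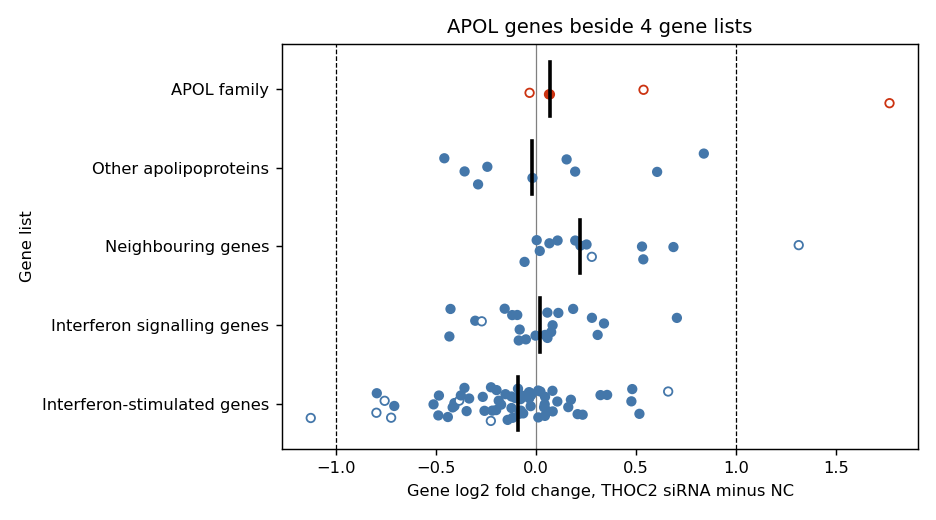
Log2 fold change (THOC2 siRNA minus NC) of each measured gene of the APOL family and of the 4 lists set beside it, with the median of each as a black line, open symbols for genes with a compared probe that was dim on 1 array, and a vertical scatter that has no meaning. The medians run from -0.09 for the interferon-stimulated genes to 0.22 for the neighbouring genes, with the APOL family at 0.07.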

How the data were processed

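Gene expression was measured in A375 cells on 2 arrays, 1 per condition. The authors scanned the arrays and extracted fluorescence intensity with Agilent Feature Extraction 10.7.1.1 (per the labels), which subtracted the background and substituted a small positive value where the result was too low. The authors also deposited normalized log2 values, used here as an alternative, and a table of fold changes for listed probes, which was not used.

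Intensity was taken as processed signal without control spots and outlier flags (147 spots with NC, 168 with THOC2 siRNA), with no spot saturated. Log2 signal was averaged over the spots of a probe and set to the array's 75th percentile over the 58199 probes in common. A probe was well above background if at least 50% of its spots were, and a gene was the mean of its compared probes. A dim signal was also placed at the lowest signal well above background on its array or at its own, if higher. The methods' Student's test needs replicates and was not run. Alternatives were quantile normalization, median scaling, lowess centring (span 0.3), normexp (offset 50, limma 3.58.1 in R 4.3.3), stricter and no detection filters, a fold of 3, centring over 128 blocks of spots and probes in place of genes. Calculations used Python 3.11.15, numpy 2.4.6, pandas 2.3.3 and statsmodels 0.14.6, and were tested on simulated data.

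The members and lists were chosen with earlier results of these data known. Named genes were all members, THOC2, ACTB, the 3 lowest and 3 highest of each list among genes on both arrays, and every neighbouring gene and partner. The 5 genes nearest to a member by level were also in that rule and are not reported, since levels of different probes are not comparable. Cell type markers came from a list of their own. IFI27 and the genes with opposing probes were named outside the rule, after their values were seen. All 6 members matched the RefSeq gene table by Entrez identifier. Promoter and protein sequences of the members were not used here. The reference gene ACTB had 15428 and 14775 on one probe and 92093 and 99917 on the other (log2 fold changes 0.25 and 0.43).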

Additional observations from a re-analysis of the deposited data

How the results depend on the processing

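No paired analysis was possible because there was 1 array per condition. For the 6 compared APOL probes 51 values under alternatives were computed, of which 42 moved by less than the technical SD, 9 by more, and 0 changed the sign of a called value. The mean for APOL6 went from -0.03 to -0.41 with normexp and to -1.41 with probes on both arrays, which leaves out its dim probe by construction. The median of the other apolipoproteins went from -0.02 to 0.27 with no detection filter, where the median over all probes was 0.305 in place of 0.03. The 844 lower and 743 higher probes became 33 and 79 with normexp, 81 and 184 on both arrays, 1929 and 3127 with no detection filter, 225 and 476 with dim signals at their limit, and 502 and 447 at a fold of 3. The filters and limits act by construction. The normexp offset of 50, added to every signal, also shrinks the folds of dim probes by construction. Any other part was not tested. Medians of the other lists and of the family, including 0.30 by probes in place of genes, moved by less than the technical SD. That SD is of repeated spots and does not measure the spread of a median. The family median ran from 0.0047 with normexp to 0.30, and that of the neighbouring genes from 0.13 with normexp to 0.27 with no detection filter. The dim probes of APOL3, APOL4, APOL5 and APOL6 lie near or below background, and no replicate array measures the spread between cultures.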

Other observations

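Long non-coding transcripts named for their APOL neighbours were also on the array, with 1 probe each, and were looked up after the APOL values had been seen. The lnc-APOL1-1 probe read 70.2 with NC and 59.2 with THOC2 siRNA, a log2 fold change of 0.06 and close to those of APOL1 and APOL2. The lnc-APOL3-2 probe (7.40 and 3.25) and the lnc-APOL1-2 probe (3.05 and 3.35) were below background on both arrays and have no fold.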
